A study of Homo sapiens with 8 samples.

Results

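The neutrophil-attracting CXC chemokines are small secreted proteins that carry a glutamate-leucine-arginine motif ahead of their paired cysteines and bind the receptors CXCR1 and CXCR2 on neutrophils. The 6 genes described here were chosen by symbol, CXCL1, CXCL2, CXCL3, CXCL5, CXCL6 and CXCL8, out of 60558 genes in each library. Epithelial and stromal cells of the gut release these proteins when tumor necrosis factor α (TNFα), interleukin-1 or microbial products reach them, and the resulting gradient draws neutrophils through the tissue. Their genes are classic targets of the transcription factor NF-κB, together with AP-1 and C/EBP factors, and their mRNAs are short-lived because AU-rich elements bind decay proteins such as tristetraprolin. CXCL8, also called interleukin-8, is the best known of them and binds both receptors, and CXCL1, CXCL2, CXCL3 and CXCL5 act mainly through CXCR2.

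RNA-seq was run on 2D human intestinal epithelial cells (hIECs) differentiated from the human embryonic stem cell line H9. There were 4 groups of 2 libraries: normal hIECs, normal hIECs with PM10 (airborne particulate matter), inflamed hIECs and inflamed hIECs with PM10. Inflamed cells received interferon γ (IFNγ) and TNFα, each at 50 ng/ml, for 10 days, and PM10 was present at 100 µg/ml for the last 7 days by the study's methods, whereas the sample labels give 10 days for every library. All groups come from 1 cell line, and since no source used here says that paired libraries came from separate cultures, p-values measure the spread between libraries only. The comparisons ask how cytokines and particulate matter, alone and together, change these transcripts.

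Expression was given as FPKM, fragment counts scaled by transcript length and by the mapped total of the library, so levels of different genes can be compared per length. The lowest value above 0 lay between 0.164 and 0.228 FPKM across the 8 libraries, and a gene under that level is listed at 0. Read depth is unknown, since no counts are given. Between 16547 and 18926 genes per library were above 0, and transcripts of mitochondrial DNA took 15.5% to 24.2% of all FPKM, with both ends of the normal group, 17.02% and 24.2%, far apart. The epithelial label did not hold for its defining markers. CDX2, VIL1, KRT20, MUC2, LYZ and CHGA were listed at 0 in all 8 libraries, EPCAM did not exceed 0.622 FPKM and CDH1 was above 0 in a single library. The 13 intestinal epithelial markers summed to between 297 and 665 FPKM, nearly all of it the keratins KRT8 and KRT18, whereas the 10 mesenchymal markers, led by TAGLN, VIM, ACTA2 and COL3A1, summed to between 4350 and 5731 FPKM. In a bulk library, a change in the number of cells that make a chemokine cannot be told apart from a change in the RNA made per cell.

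The 6 genes share 1 cluster on chromosome 4, which spans 358.7 kb in GRCh38, from 73740519 to 74099196. In order along the chromosome, CXCL8, CXCL6 and CXCL1 are on the plus strand, and CXCL5, CXCL3 and CXCL2 follow on the minus strand. The sequence just upstream of each start site is shown because all 6 promoters carry the same NF-κB core, GGAATTTCC, at nearly the same distance from the start. RefSeq's 300-base promoters on GRCh38.p14 were searched on both strands for this core, chosen as the known element of CXCL8, and for the AP-1 letters TGANTCA. In the sequences below, written 5′ to 3′ on the gene's own strand, capitals mark the NF-κB core and the AP-1 match. They cover the bases from 140 to 51 before the RefSeq start, except for CXCL3, where 30 bases are given since an alternative annotated transcript starts further upstream.

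CXCL1, plus strand, chr4:73869253-73869342: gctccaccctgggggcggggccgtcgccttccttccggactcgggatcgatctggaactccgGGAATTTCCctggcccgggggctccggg
CXCL2, minus strand, chr4:74099246-74099335: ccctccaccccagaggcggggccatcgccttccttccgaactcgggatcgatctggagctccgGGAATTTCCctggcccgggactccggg
CXCL3, minus strand, chr4:74038749-74038778: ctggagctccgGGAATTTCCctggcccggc
CXCL5, minus strand, chr4:73998728-73998817: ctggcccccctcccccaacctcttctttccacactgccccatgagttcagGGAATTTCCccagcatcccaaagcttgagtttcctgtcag
CXCL6, plus strand, chr4:73836538-73836627: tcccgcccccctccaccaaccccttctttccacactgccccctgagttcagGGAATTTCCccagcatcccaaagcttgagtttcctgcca
CXCL8, plus strand, chr4:73740429-73740518: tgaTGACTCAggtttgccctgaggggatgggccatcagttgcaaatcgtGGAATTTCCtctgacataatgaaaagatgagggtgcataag

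The core began 78, 77 and 78 bases before the start of CXCL1, CXCL2 and CXCL3, 90 and 89 bases before that of CXCL5 and CXCL6, and 91 bases before that of CXCL8. Of 35116 promoters of this length, 162 (0.461%) held the core. The AP-1 letters were found in CXCL8 alone among the 6, beginning 137 bases before its start, against 7.709% of all promoters. By sequence the windows fell into families. Over the aligned bases of the 90-base windows, with gaps left out, CXCL1 was 91.0% identical to CXCL2 and 92.2% to CXCL3. CXCL5 was 93.3% identical to CXCL6, and CXCL8 was at most 67.7% identical to any of the others, a value over 65 aligned bases. A match is a run of letters, and binding was not measured here.

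The coding sequences fell into the same families, which bears on how reads were assigned. That of CXCL2 was 93.5% identical to CXCL1 and 94.4% identical to CXCL3, and that of CXCL5 was 87.4% identical to CXCL6. Of the 50-base windows of the main CXCL1 transcript, 5.33% were found unchanged in a CXCL2 transcript and 0.533% in a CXCL3 transcript, and no 100-base window was shared between any pair of the 6 genes. Reads were 100 bases long and sequenced from both ends, and those trimmed to under 50 bases had been left out, so shorter reads could still be split between CXCL1, CXCL2 and CXCL3, whose separate values are less certain than those of the other 3. CXCL6 overlaps the pseudogene PPBPP1 and CXCL5 overlaps an antisense noncoding gene, and both were listed at 0 in every library. The libraries were not strand-specific, so reads from the latter overlap cannot be told apart by strand.

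In normal hIECs the 6 transcripts were barely detected. CXCL1 was at 0.425 and 0.391 FPKM, only 2.60 and 1.83 times the lowest value those libraries held. CXCL2 was at 0.431 and 0.423 FPKM and CXCL6 at 0.329 and 0.386 FPKM. CXCL3 was at 0.205 and 0.232 FPKM, while CXCL5 and CXCL8 were listed at 0 in both libraries. The 6 genes together summed to 1.39 and 1.43 FPKM, and none of them reached 1 FPKM in any library without cytokines. CXCL1 and CXCL2 overlapped in level, CXCL6 lay just under CXCL1, and CXCL3 was lowest of the 4 that were detected. No other chemokine gene of the cluster was seen: PPBP, PF4 and PF4V1, which platelets make, were listed at 0 in all 8 libraries, as were the receptors CXCR1 and CXCR2. The scavenging receptor ACKR1 did not exceed 0.729 FPKM, so none of these 6 other genes could be tested.

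**Figure D1:**
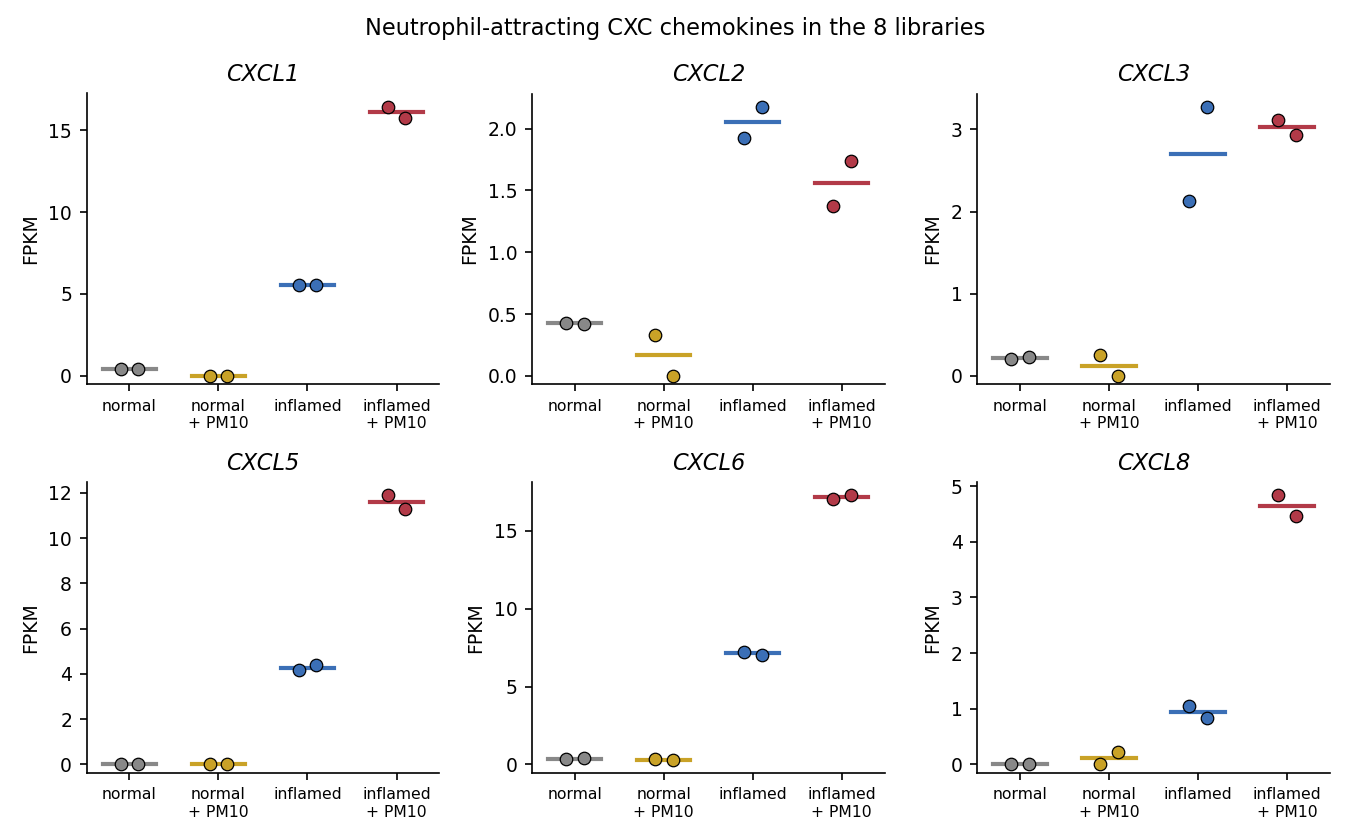
FPKM (linear axes that differ between panels) of each of the 6 chemokine genes in the 8 libraries, with points for single libraries and bars for group means of 2. All 6 genes lay below 0.5 FPKM without cytokines, and CXCL1, CXCL5, CXCL6 and CXCL8 rose again when PM10 was added to inflamed cells, whereas CXCL2 and CXCL3 stayed between 1.38 and 3.27 FPKM.

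The 10 days of IFNγ and TNFα raised all 6 chemokines. CXCL6, which binds both receptors, was the highest in inflamed hIECs at 7.22 and 7.03 FPKM, 19.9-fold over the normal mean, with the ratio of single libraries between 18.2 and 22.0. CXCL1 was at 5.56 and 5.57 FPKM, a 13.6-fold rise. CXCL5, listed at 0 in normal cells, was at 4.17 and 4.39 FPKM. These 3 genes stood apart from the other 3 in inflamed cells, with no overlap between libraries of neighbours in that order. CXCL3 was at 2.13 and 3.27 FPKM, 12.4-fold over normal, and this wide gap between its libraries put the lower one below the higher CXCL2 library. CXCL2 was at 1.93 and 2.18 FPKM, a 4.81-fold rise. CXCL8 was the lowest of the 6 at 1.04 and 0.834 FPKM, after being listed at 0 without cytokines. For folds against values near the lowest the files hold, the size is less certain than the direction.

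For testing, values were compared as log2(FPKM + 1), and a linear model was fitted with limma to the 14206 genes that reached 1 FPKM in 2 or more libraries. This scale understates the change of low genes. All 6 chemokines passed that minimum, but only through the libraries with cytokines, since 0 of them would have passed on the 4 libraries without. On this scale the change in inflamed against normal hIECs was 2.58 (SE 0.07, adjusted p = 2.28e-07) for CXCL6, 2.40 (adjusted p = 4.3e-07) for CXCL5 and 2.22 (adjusted p = 4.11e-07) for CXCL1. It was 1.58 (SE 0.17, adjusted p = 0.00016) for CXCL3, 1.10 (adjusted p = 0.000631) for CXCL2 and 0.95 (adjusted p = 0.000418) for CXCL8. All 6 were thus called higher, where 25.9% of all genes tested were called higher and 30.3% lower, so a call by itself was common in this comparison. Both inflamed libraries lay above both normal libraries for all 6 genes, as for 36.4% of all genes. The median change of the 6 was 1.90 on the log2 scale, beside -0.03 over all genes tested. Taken 1 gene at a time, an exact permutation of 2 libraries against 2 cannot give a p below 0.333.

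With PM10 in both arms, the cytokines again raised all 6 chemokines. CXCL6 was at 0.343 and 0.254 FPKM in normal hIECs with PM10 and at 17.1 and 17.3 FPKM in inflamed hIECs with PM10, which is 57.5-fold. CXCL1, listed at 0 in both normal libraries with PM10, was at 16.4 and 15.8 FPKM in the inflamed ones. The log2 change was 4.09 (SE 0.07, adjusted p = 1.59e-08 by limma) for CXCL1, 3.81 for CXCL6, 3.66 for CXCL5, 2.36 for CXCL8, 1.85 for CXCL3 and 1.14 for CXCL2, whose adjusted p of 0.000389 was the highest of the 6. In this comparison 25.8% of all genes tested were called higher and 39.6% lower, and the median over all genes was -0.11, so the changes of the chemokines relative to a typical gene were larger by that amount. Both libraries of inflamed hIECs with PM10 were above both of normal hIECs with PM10 for each of the 6, as for 34.7% of all genes.

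PM10 on normal hIECs raised none of the 6 by limma, and 0 rose at an unadjusted p under 0.05. CXCL1 went from 0.425 and 0.391 FPKM to a listed 0 in both libraries, and its log2 change of -0.49 (SE 0.07, adjusted p = 0.00922 by limma) was the single call, beside 3.72% of all genes called lower and 5.51% higher. That call rests on values at the edge of detection, and it was lost when only the normal and normal PM10 libraries were fitted (adjusted p = 0.0822) or when either normal PM10 library was left out (adjusted p = 0.0619 and 0.0597). CXCL2 was at 0.334 and 0 FPKM with PM10 and CXCL3 at 0.249 and 0 FPKM, so both were listed at 0 in the same library. CXCL5 remained at 0 in both libraries, and CXCL8 was at 0 and 0.213 FPKM. The sum of the 6 genes was 0.926 and 0.466 FPKM, lower in both libraries than in normal hIECs. The 95% intervals of the log2 change ran from -0.23 to 0.10 for CXCL6 and from -0.14 to 0.42 for CXCL8.

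PM10 on inflamed hIECs split the family. CXCL1, CXCL5, CXCL6 and CXCL8 rose well past the spread of their libraries, and CXCL2 and CXCL3 did not pass the test. CXCL1 went from 5.56 and 5.57 FPKM to 16.4 and 15.8 FPKM, a 2.89-fold rise. CXCL5 went from 4.17 and 4.39 FPKM to 11.9 and 11.3 FPKM, a 2.71-fold rise. CXCL6 went from 7.22 and 7.03 FPKM to 17.1 and 17.3 FPKM, a 2.41-fold rise. For each of these 3 genes, the gap between groups was larger than the gap between libraries of a group. CXCL8 showed the largest ratio of the 6, going from 1.04 and 0.834 FPKM to 4.83 and 4.46 FPKM, 4.95-fold, with ratios of single libraries between 4.28 and 5.79. CXCL3 was at 2.13 and 3.27 FPKM without PM10 and at 3.12 and 2.93 FPKM with it, so the groups overlapped. CXCL2 was at 1.93 and 2.18 FPKM without PM10 and at 1.38 and 1.74 FPKM with it, a ratio of 0.760 in the opposite direction to the others.

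On the log2(FPKM + 1) scale the change with PM10 in inflamed hIECs was 1.54 (95% interval 1.26 to 1.83, adjusted p = 0.000585) for CXCL8, 1.38 (1.22 to 1.54, adjusted p = 0.000123) for CXCL1, 1.26 (1.08 to 1.43, adjusted p = 0.000207) for CXCL5 and 1.16 (0.993 to 1.331, adjusted p = 0.000207) for CXCL6, all by limma. These 4 of 6 stand beside 6.22% of all genes called higher and 9.02% called lower. CXCL8, at 1.04 and 0.834 FPKM in inflamed hIECs, reached the minimum for testing only with the help of the inflamed PM10 libraries. That favours its call here. The interval for CXCL3 ran from -0.25 to 0.53 (adjusted p = 0.605) and that for CXCL2 from -0.61 to 0.10 (adjusted p = 0.281), so neither reached the lower bounds of the 4 that rose. Both libraries with PM10 were above both without it for those 4 genes, which was also true of 31.9% of all genes. The calls of the 4 genes in this comparison were kept in every alternative fit that included them.

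**Figure D2:**
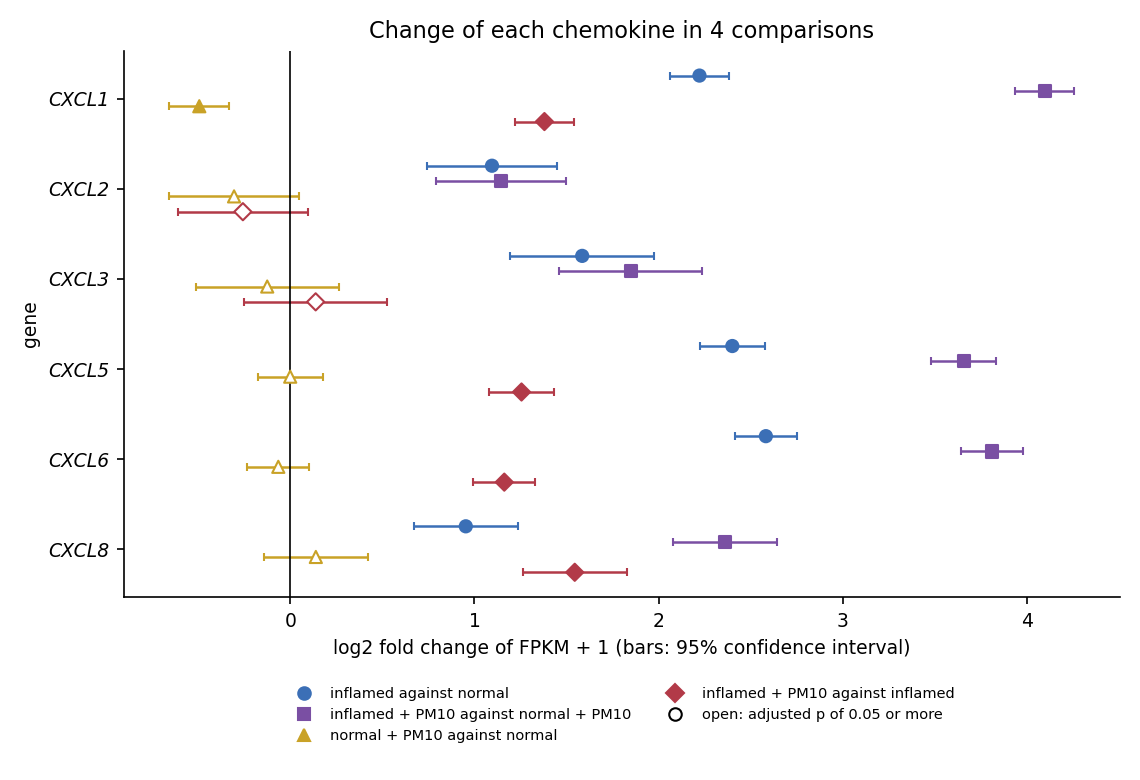
Log2 fold change of FPKM + 1 for each chemokine gene (vertical axis) in 4 comparisons, with bars for 95% confidence intervals and open symbols where the adjusted p was 0.05 or more. Circles and squares (cytokines) lie right of 0 for all 6 genes, while diamonds (PM10 on inflamed cells) lie right of 0 for CXCL1, CXCL5, CXCL6 and CXCL8 and cross 0 for CXCL2 and CXCL3.

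The change that PM10 made in inflamed cells was then set against the change it made in normal cells, as an interaction in the same model. The difference in log2 change was 1.87 (SE 0.10, adjusted p = 0.000434) for CXCL1, 1.41 (SE 0.17, adjusted p = 0.00619) for CXCL8, 1.26 (SE 0.11, adjusted p = 0.00173) for CXCL5 and 1.23 (SE 0.10, adjusted p = 0.00171) for CXCL6. These 4 were called higher, beside 2.11% of all genes called higher and 4.48% lower. For CXCL8 the filter favours this call too, since it was tested only with the help of the inflamed PM10 libraries. For CXCL2 the difference was 0.05 (95% interval -0.45 to 0.55, adjusted p = 0.922) and for CXCL3 it was 0.26 (-0.29 to 0.81, adjusted p = 0.549). Because the normal groups were at or near 0, the size of this term depends on the constant added before taking logs. An equal ratio gives a smaller change at low levels on this scale, so the term is not a difference in ratio. For CXCL5 and CXCL8, listed at 0 in normal hIECs, a rise by an equal ratio could have stayed unseen. With 0.1 in place of 1 the term for CXCL1 was 3.86 and that for CXCL8 was 1.38 with an adjusted p of 0.298, no longer called. The normal PM10 libraries of CXCL8 were at 0 and 0.213 FPKM.

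The make-up of the chemokine pool differed with PM10. The 6 genes summed to 22.0 and 23.3 FPKM in inflamed hIECs and to 54.7 and 53.5 FPKM in inflamed hIECs with PM10. The share of CXCL2 in that sum was 8.74% and 9.35% without PM10 and 2.51% and 3.25% with it, and the share of CXCL3 was 9.64% and 14.1% without and 5.70% and 5.47% with it. CXCL8 made up 4.73% and 3.59% of the sum without PM10 and 8.84% and 8.35% with it. CXCL1 took 25.2% and 23.9% of the sum without PM10 and 30.01% and 29.5% with it. Within each library, the ratio of CXCL1 to CXCL2 was 2.89 and 2.56 in inflamed hIECs and 11.9 and 9.06 with PM10, after 0.987 and 0.924 in normal hIECs. The ratio of CXCL1 to CXCL3 was 2.62 and 1.70 without PM10 and 5.27 and 5.38 with it. Such ratios do not depend on how a library was scaled, and an exact permutation test on any of them, 2 libraries against 2, gives its smallest possible p of 0.333. Among the ratios given here, that of CXCL6 to CXCL5 differed least, at 1.73 and 1.60 without PM10 and 1.44 and 1.53 with it. If CXCL1, CXCL2 and CXCL3 are taken as 1 value because of their likeness, the sum was 9.61 and 11.02 FPKM in inflamed hIECs and 20.9 and 20.4 FPKM with PM10, 2.00-fold.

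**Figure D3:**
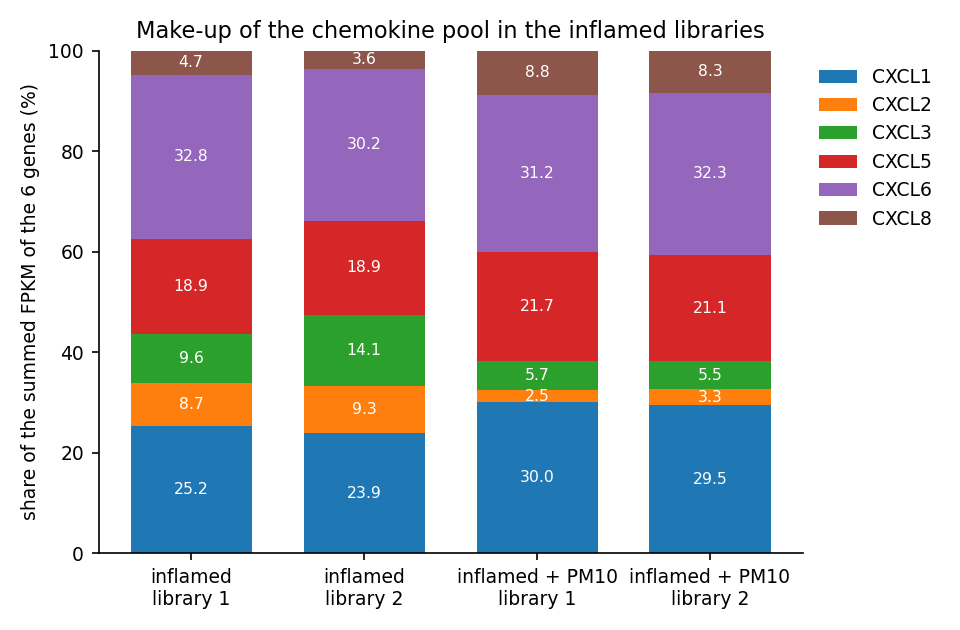
Share of each gene in the summed FPKM of the 6 chemokines (vertical axis, percent) in the 4 libraries that received cytokines. The segments of CXCL2 and CXCL3 are smaller and that of CXCL8 larger in both libraries with PM10, while CXCL1, CXCL5 and CXCL6 together make up 73.0% to 82.9% of each bar.

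With PM10 the order of levels in inflamed hIECs became CXCL6, CXCL1, CXCL5, CXCL8, CXCL3 and CXCL2, and no library of 1 gene overlapped its neighbour in that order. CXCL8 thereby moved from the last place to the fourth. Among the 14551 protein-coding genes above 0 in at least 1 library, CXCL6 ranked 3279 and 3217 with PM10 against 6182 and 6285 without it, and CXCL2 ranked 11022 and 10534 against 10388 and 10114. Position in the cluster did not sort the genes that responded to PM10 from those that did not by strand. CXCL8, CXCL6 and CXCL1 on the plus strand and CXCL5 on the minus strand rose, and CXCL3 and CXCL2, which lie next to each other at the far end, did not pass the test. CXCL1 sits apart from CXCL2 and CXCL3 in the cluster although its promoter and coding sequence, shown above, are closest to theirs.

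**Figure D4:**
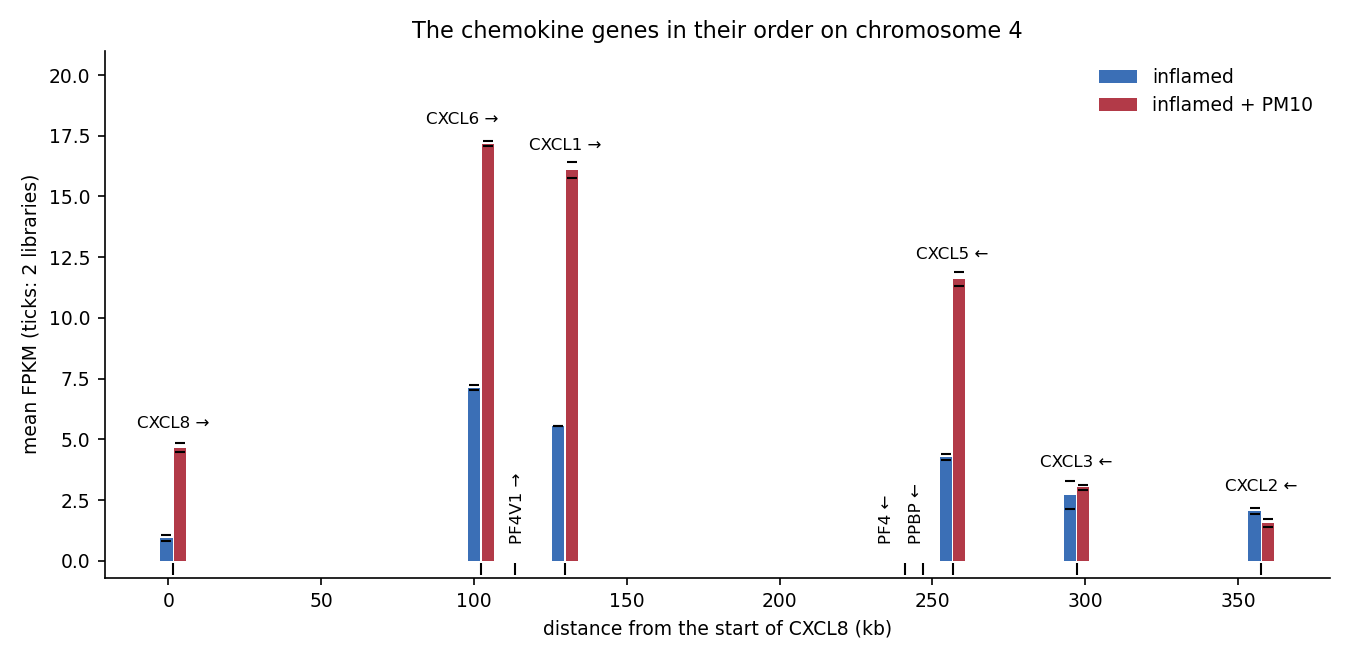
Mean FPKM of 2 libraries (bars, with ticks for single libraries) in inflamed hIECs and inflamed hIECs with PM10, placed at the distance of each gene from the start of CXCL8 in kb, with arrows for the strand. The genes from CXCL8 to CXCL5 have taller bars with PM10, the bars of CXCL3 and CXCL2 at the right end are close to each other, and PF4V1, PF4 and PPBP between them are at 0.

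The patterns over all 8 libraries were compared by the root mean square difference of centred log2(FPKM + 1) values, as a description. This scale shrinks the changes of low genes, so genes close to a chemokine here need not have changed by the same ratio. Among the 6, CXCL5 and CXCL6 were closest (0.10), CXCL1 lay 0.18 from CXCL6 and 0.19 from CXCL5, and CXCL2 and CXCL3 lay 0.35 from each other. CXCL1 and CXCL2 were the farthest pair (1.18). Over all genes tested, the gene most like CXCL1 was TNFRSF11B (0.16), the decoy receptor osteoprotegerin, with group means of 2.68, 1.52, 18.9 and 40.1 FPKM in normal, normal PM10, inflamed and inflamed PM10 cells. After it came CXCL6 and CXCL5. CXCL5 had CXCL6, CXCL1 and IGFBP3 (0.20) as its nearest, and CXCL6 had CXCL5, CXCL1 and TNFRSF11B (0.20). CXCL8 was nearest to the chemokine gene CCL1 (0.21) and the noncoding genes IL12A-AS1 and AL354953.1 (both 0.24). CXCL3 was nearest to MMP25-AS1 (0.12), SP6 (0.13) and NRP2 (0.14). CXCL2 was nearest to AC027237.1 (0.11), GTSE1 (0.12) and NCAPG (0.13), the latter pair being genes of the mitotic cell cycle. With cytokines the mean of CXCL2 went from 0.427 to 2.05 FPKM and that of NCAPG from 2.97 to 7.04 FPKM, a smaller ratio.

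Genes of the TNF and NF-κB pathway, of which these chemokines are classic targets, were described from lists. The activity of the pathway was not measured. Of 11 genes for TNF receptors and their adaptors, 8 were called higher and 1 lower in inflamed against normal hIECs. BIRC3, a ubiquitin ligase of the TNF receptor complex, was listed at 0 in all 4 libraries without cytokines and was at 4.05 and 3.92 FPKM in inflamed cells. It was thus tested only through libraries with cytokines, which favours its call. TRAF2, TNFRSF1B and TAB2 rose by log2 changes of 0.82, 0.67 and 0.62, while TRAF5 fell by 0.50. Of 7 IKK and NF-κB subunit genes tested out of 8, 4 were called higher. NFKB1 (log2 change 1.84, adjusted p = 4.64e-07 by limma), RELB (1.68), NFKB2 (1.32) and CHUK (0.22) rose, whereas IKBKG, at 0.15, was not called. Of 9 NF-κB inhibitors and modulators, 7 were higher, led by TNFAIP3, the feedback inhibitor A20 (2.62), NFKBIA (2.09), NFKBIE (1.95), NFKBIZ (1.38) and TNIP1 (1.30). Median log2 changes of these lists were 0.42, 0.22 and 1.30, beside -0.03 over all genes. The counts of these and later lists with cytokines stand beside 25.9% of all genes tested called higher and 30.3% lower.

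When PM10 was added to inflamed cells, the IKK and NF-κB subunit genes moved little beside the 4 chemokines that rose, while inhibitors and modulators moved in both directions. Of the 7 subunit genes, 0 were called by limma and 2, NFKB2 (higher) and IKBKB (lower), passed at an unadjusted p under 0.05. The log2 changes of the 7 lay between -0.22 and 0.17. NFKB1 was at 22.0 and 22.3 FPKM without PM10 and at 22.1 and 22.2 FPKM with it. Of the 9 inhibitors and modulators, 3 were higher and 2 lower: CYLD (0.82), TNIP1 (0.54) and TNFAIP3 (0.38) rose, and NFKBIZ (-0.56) and BCL3 (-0.47), nuclear IκB proteins, fell. Of the 11 receptor and adaptor genes, BIRC3 alone was called, higher by 0.51. The counts of these and later lists for PM10 on inflamed cells stand beside 6.22% of all genes tested called higher and 9.02% lower.

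AP-1 and C/EBP genes moved in both directions. In inflamed against normal hIECs, 6 of 10 were higher and 2 lower, with ATF3 (2.68), FOSL1 (1.81), FOSL2 (1.03), CEBPB (1.01) and FOS (0.60) higher. With PM10 on inflamed cells, 1 was higher and 5 lower. FOSL1, which encodes the AP-1 subunit FRA1, went from 6.75 and 8.03 FPKM to 19.01 and 19.06 FPKM (log2 change 1.26, adjusted p = 0.00212), and FOS went from 29.6 and 28.4 FPKM to 4.999 and 4.73 FPKM (-2.35, adjusted p = 9e-05, both by limma). CEBPB was among those that fell (-0.34). CXCL8, the 1 gene of the 6 with the AP-1 letters in its promoter window, had the largest ratio with PM10, which is a single gene and was not tested.

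Of 9 genes for chemokine mRNA decay and stability, 7 were higher and 1 lower with cytokines. ZC3H12A, an RNase that degrades inflammatory mRNAs, rose by 1.75, and ZFP36L2, MAPK14 and HNRNPD by 0.49, 0.36 and 0.25. ZFP36, which encodes tristetraprolin, was at 12.6 and 18.6 FPKM in normal hIECs and at 7.33 and 7.68 FPKM in inflamed hIECs, where its log2 change was -0.94 (adjusted p = 0.00137). In inflamed cells with PM10 it was at 4.61 and 4.25 FPKM, a further -0.65 (adjusted p = 0.0297). In that comparison 1 of the 9 was higher and 3 lower.

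**Figure D5:**
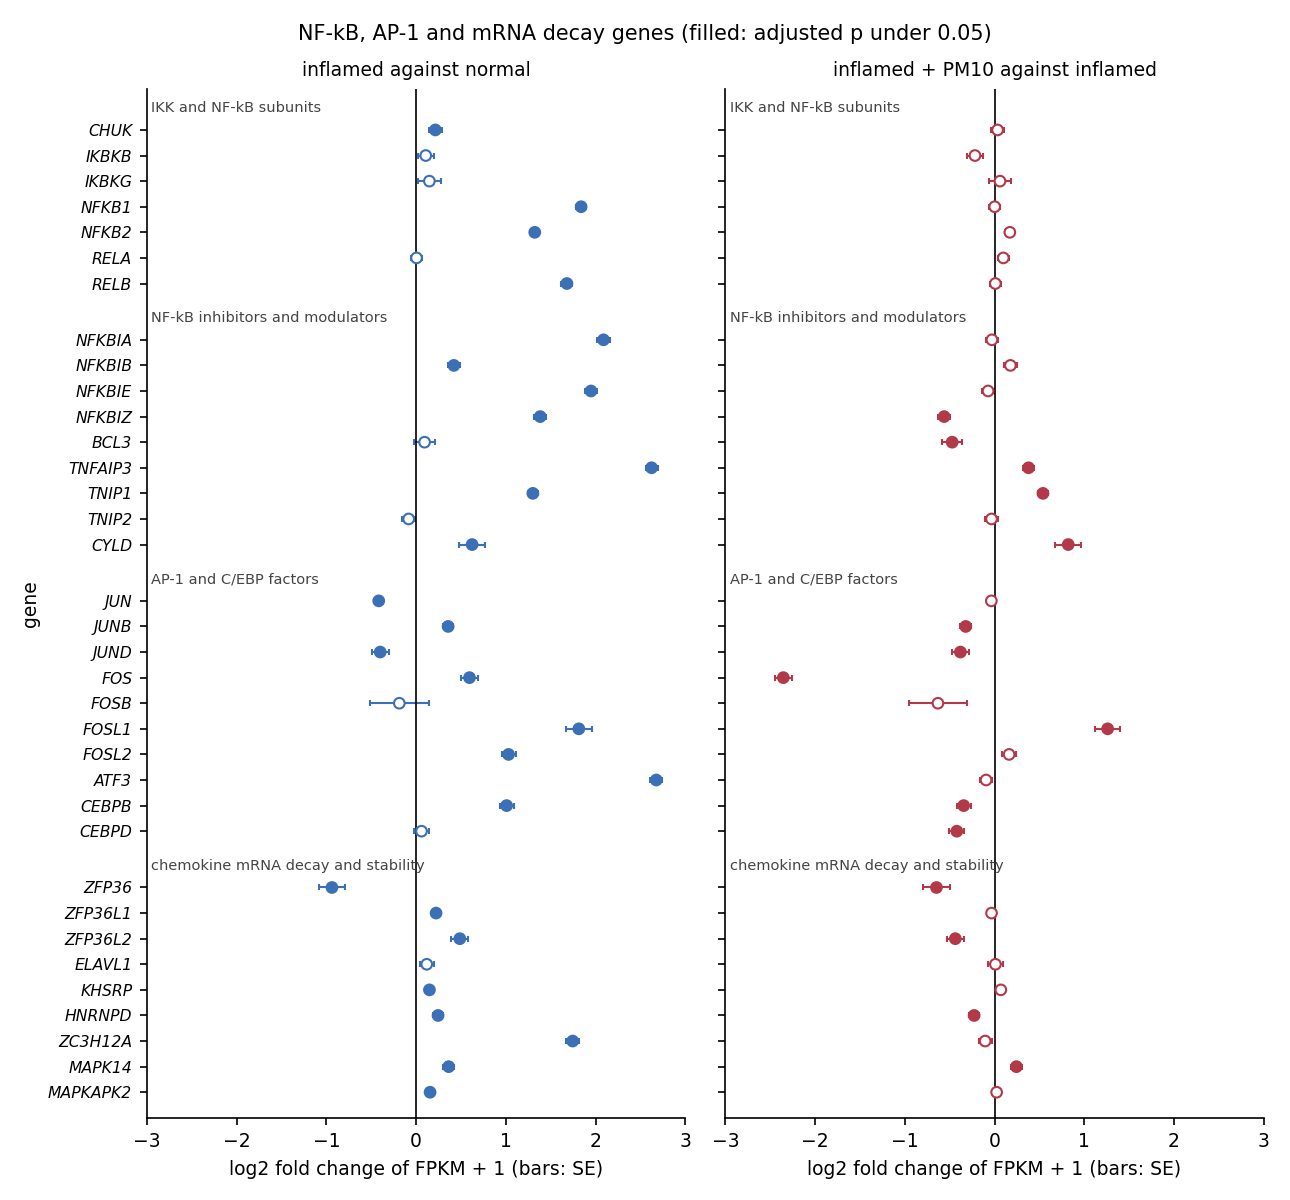
Log2 fold change of FPKM + 1 (horizontal axis, bars for SE) of the tested NF-κB, AP-1, C/EBP and mRNA decay genes in inflamed against normal cells (left) and in inflamed cells with PM10 against inflamed cells (right), with filled points where the adjusted p was under 0.05. Most NF-κB genes lie right of 0 at left. At right the subunit genes lie close to 0 and the inhibitors and modulators lie on both sides of it, while FOSL1 at 1.26 and FOS at -2.35 are the farthest from 0.

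Ligands that raise these chemokines were not detected as transcripts: TNF, IL1A, IL1B and IL17A were listed at 0 in all 8 libraries, as was IL1RN, which encodes the antagonist of the interleukin-1 receptor. Of 8 receptor and adaptor genes of the same list that were tested, 5 were higher and 1 lower with cytokines, with TLR2 (1.39), TLR3 (1.22), MYD88 (0.92) and IL1RAP (0.88) higher and IL1R1 (-0.44) lower. TLR2 and TLR3 reached the minimum for testing only through libraries with cytokines, which favours their calls. With PM10 on inflamed cells, IL1RAP alone was called, higher by 0.40.

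Other products that act on neutrophils did not follow a single pattern. CSF2, CSF3, LCN2, S100A8 and S100A9 were listed at 0 in all libraries, and the other 5 of 10 were all called higher with cytokines. Of these 5, all but ICAM1 reached the minimum for testing only through libraries with cytokines, which favours such a call. Over all genes tested, 25.9% were called higher in that comparison. ICAM1, the adhesion molecule that neutrophils bind, went from 2.17 and 2.04 FPKM to 77.3 and 78.2 FPKM, and to 109 and 106 FPKM with PM10 (log2 change 0.47, adjusted p = 0.00379 by limma). IL6 was at 26.4 and 21.3 FPKM in inflamed hIECs and at 6.45 and 6.51 FPKM with PM10, a change of -1.72 (adjusted p = 0.000525) in the opposite direction to CXCL8. SAA1 went from 4.86 and 6.59 FPKM to 21.3 and 21.05 FPKM (1.73, adjusted p = 0.000334) and SAA2 by 1.67, though these near-identical genes may share reads. C3 rose by 2.25 with cytokines, and its change of 0.42 with PM10 on inflamed cells was not called (adjusted p = 0.0836).

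Markers of other cells that could carry these transcripts were checked beside them. Of 6 neutrophil markers, MPO, ELANE, FCGR3B, CSF3R and CEACAM8 were listed at 0 in all libraries, and AZU1 was at 1.12 to 2.80 FPKM in the 4 libraries without cytokines but at most 0.217 FPKM in those with them, opposite to the chemokines. Of 6 leukocyte markers, CD14, CSF1R, ITGAM and CD3E were listed at 0 throughout and PTPRC was at 0 in all 4 libraries with cytokines. CD68 was at 0.399 and 0.333 FPKM in inflamed hIECs and at 1.11 and 1.83 FPKM with PM10 (log2 change 0.84, adjusted p = 0.021 by limma). It reached the minimum for testing only through the inflamed PM10 libraries, which favours such a call. The sum of the 6 leukocyte markers was between 0.253 and 1.83 FPKM. Of 5 endothelial markers, 4 were listed at 0 and TEK did not exceed 0.486 FPKM. The mesenchymal sum was between 5664 and 5731 FPKM in inflamed hIECs and between 4995 and 5020 FPKM with PM10, and the epithelial sum between 355 and 360 FPKM and between 297 and 316 FPKM. The sums follow their most abundant genes, and single markers differed from them. With PM10 on inflamed cells, 6 of the 10 mesenchymal markers were called lower and 1 higher, beside 9.02% and 6.22% of all genes. The higher one was LUM, at 98.1 and 97.1 FPKM in inflamed hIECs and at 141 and 139 FPKM with PM10 (log2 change 0.51, adjusted p = 0.000897 by limma). Of 4 epithelial markers tested, 1 was called lower and 1 higher. The higher one was LGR5, a stem cell marker, at 5.68 and 5.26 FPKM and at 8.28 and 7.92 FPKM with PM10 (0.49, adjusted p = 0.0172 by limma). The markers also moved with the cytokines that raised all 6 chemokines. Between normal and inflamed hIECs, the epithelial sum went from 657 and 665 FPKM to 360 and 355 FPKM, with KRT8 (-0.82), KRT18 (-0.99) and SOX9 (-1.63) called lower and LGR5 (0.97) called higher. The mesenchymal sum went from 5028 and 5010 FPKM to 5664 and 5731 FPKM, with LUM (1.31), TAGLN (0.65) and ACTA2 (0.56) called higher and PDGFRA (-0.69) and COL3A1 (-0.53) called lower. The part of these markers in the chemokine results was not tested.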

How the data were processed

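RNA was measured in 8 libraries of H9-derived hIECs, 2 in each of 4 groups taken from the sample titles. RNA with an integrity number above 7.5 was poly-A selected and sequenced without strand information, in 2 reads of 100 bases per fragment. The authors trimmed reads with Cutadapt and Sickle, aligned them to GRCh38 with HISAT2 and estimated genes with StringTie. The deposited values are FPKM, 1 per gene and library, with no scaling between libraries stated; the annotation release is not given in the sources used here. FPKM holds no counts, so no count test was run and depth cannot set an interval.

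Values were compared as log2(FPKM + 1). A single model was fitted to all 8 libraries in limma 3.58.1 (under R 4.3.3, variance modelled on the mean), over 14206 genes that reached 1 FPKM in 2 or more libraries, giving 5 contrasts with Benjamini-Hochberg adjusted p-values over all genes and a threshold of 0.05. Tested on simulated data of these dimensions for inflamed PM10 against inflamed, the fit recovered 100 of 100 genes changed by 1 and 100 of 100 changed by 2 on the log2 scale, with 9 false among 209 calls. The simulated noise was normal, alike in all groups and without a floor at 0. It therefore does not give the error rate for genes at or near 0. Positions and transcripts came from GENCODE 44, which holds 99.51% of the gene identifiers, and coding sequences were aligned with Biopython 1.88. RefSeq's promoter table held all 6 members. Members and gene lists were chosen with earlier results of these data known. All 6 members are named, each list names up to 5 tested genes with the largest change in inflamed against normal hIECs, and genes beyond that rule (among them BCL3, CYLD and IKBKB) were named after their values were seen. Cell type lists name the genes at 0 and up to 4 of the highest of the others, and each member's 3 nearest genes are given.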

Additional observations from a re-analysis of the deposited data

Results flagged for a closer look

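The change with PM10 on the log2(FPKM + 1) scale differed between inflamed and normal hIECs for 4 of the 6 chemokines, by the interaction term of limma over 14206 genes. The difference was 1.87 for CXCL1, where PM10 went with values of 16.4 and 15.8 FPKM in inflamed cells and a listed 0 in both normal libraries. It was 1.41 for CXCL8, 1.26 for CXCL5 and 1.23 for CXCL6. Normal hIECs were at or near the lowest value the files hold for all 4 genes. For CXCL5 and CXCL8, listed at 0 there, a fall could not have been seen. A rise by the same ratio as in inflamed hIECs could also have stayed unseen, so the term cannot show that the ratio differed. For CXCL5 it equals the change in inflamed hIECs. For CXCL1 and CXCL6 an equal ratio would also give a smaller change at the low levels of normal hIECs. With a pseudocount of 0.1 the term for CXCL8 was 1.38 and no longer called (adjusted p = 0.298, against 0.0026 at the lowest over its alternatives by limma), and the other 3 calls were kept in all alternatives.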

How the results depend on the processing

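Each comparison was refitted under 18 alternatives (17 for the interaction): pseudocounts of 0.1 and 0.5, no filter and a stricter filter, median centring, quantile normalization, FPKM rescaled without mitochondrial genes, only the groups compared, no variance trend, a replicate block and each library left out in turn. Where an arm kept 1 library, it was assumed to vary like the other groups. Of 530 alternative values, 520 kept their direction and side of the threshold. Among the 10 others, 1 was not a fit of a single member and had no threshold. It was the sum of CXCL1, CXCL2 and CXCL3 with PM10 on inflamed hIECs, which rose 2.00-fold, against 2.89-fold for CXCL1 alone. Its direction was kept. With the stricter filter CXCL8 was not fitted, which left 5 of 5 members called with cytokines and 3 with PM10 on inflamed hIECs.

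For PM10 on normal hIECs, the count of members called was 0 with only the groups compared, in place of 1, and between 0 and 1 over the libraries left out. The call of CXCL1 was lost without either normal PM10 library, and its change ranged from -0.51 to -0.48 over the libraries left out. Changes that were not called turned their sign when a library was left out: CXCL3 ranged from -0.28 to 0.0355 with PM10 on normal hIECs and from -0.0874 to 0.36 with PM10 on inflamed hIECs, and the interaction for CXCL2 from -0.16 to 0.26, with -0.01 without inflamed replicate 1, -0.055 without inflamed PM10 replicate 2 and -0.16 without normal PM10 replicate 2. The cause was not tested.

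Same-numbered libraries did not deviate together (correlations from -0.002 to 0.079 over groups). With 2 libraries in each group, this cannot tell whether same-numbered libraries shared a culture or batch. With the replicate block the members called were 6, 6, 1, 4 and 4 over the 5 comparisons, the calls of no member changed, and 762 genes in place of 937 were called in the interaction.

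Counts over all genes moved more. For PM10 on normal hIECs, 1311 genes were called, 23 with only the groups compared and 194 to 2627 over the libraries left out; for PM10 on inflamed hIECs 2165, and 675 to 2992 over the libraries left out; for the interaction 937, and 263 to 1266. Scaling moved the higher share of calls from 59.7% to 42.9% (median centring) or 75.1% (without mitochondrial genes) for PM10 on normal hIECs, from 40.8% to 50.8% (quantile) for PM10 on inflamed hIECs and from 32.0% to 45.7% and 46.6% for the interaction (median centring and quantile). Depth is unknown, so values near 0.2 FPKM cannot be told from absence.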
